A study of Mus musculus with 6 samples.

Results

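The acute phase response is the change in plasma proteins that the liver makes when it senses inflammation. Interleukin-6 (IL-6) binds its receptor Il6ra, the complex engages the shared subunit Il6st (gp130), and the phosphorylated transcription factor Stat3 then induces acute phase genes together with Socs3, which feeds back on the receptor. Interleukin-1 acts through Il1r1, NF-kB and C/EBP factors and adds to the response at genes such as the serum amyloid A and orosomucoid genes, and Il1rn is the secreted antagonist of that receptor.

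The set described here holds 35 genes of this response among the 34745 genes counted. They were chosen by symbol, as secreted acute phase proteins and as the receptors, Stat3 and feedback inhibitor through which they are controlled. The rule used no value of these libraries, although earlier results of these data were known when the set was drawn up. All 35 were listed in the counts and all 35 passed the filter on low counts, which left 14417 genes for the test. The counts came from primary hepatocytes of male mice, 12 weeks of age, with fibrosis induced by CCl4, a hepatotoxin. The FOXA2f/f+CCl4 group (n = 3 libraries, replicates 1, 2 and 4) carried floxed Foxa2 alleles and received AAV8-TBG-Control. The FOXA2H-KO+CCl4 group (n = 3, also replicates 1, 2 and 4) carried the same floxed alleles and received AAV8-TBG-Cre, in which the TBG promoter restricts Cre recombinase to hepatocytes, so that other liver cells kept Foxa2. Both groups therefore had floxed alleles, a virus given by tail vein 2 weeks before CCl4, and CCl4 at 0.25 ml/kg, injected 2 times per week for 4 weeks, with the mice killed at day 3 after the last injection. No library of mice without CCl4 was analysed here, so a level in both groups says nothing of what CCl4 did. The labels do not state that each library is a different mouse, and p-values measure the spread between libraries, which may be partly technical.

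Total counts were 20983455 to 28327765 per library. Foxa2 (chromosome 2, 148042877 to 148046969, GRCm38) had 246 to 516 counts in FOXA2f/f and 19 to 35 in FOXA2H-KO libraries. Hepatocyte markers dominated all libraries, with a summed level of 12 genes of 124208 to 178877 CPM (the count scaled to library size and the TMM factor) in FOXA2f/f and 122609 to 149590 CPM in FOXA2H-KO. Markers of other liver cells were also counted. The 14 macrophage and Kupffer cell markers summed to 688 to 3119 CPM in FOXA2f/f and 1529 to 2418 CPM in FOXA2H-KO, and the 12 stellate cell and fibroblast markers to 1109 to 2813 and 1638 to 2672 CPM. The 12 endothelial markers summed to 246 to 851 and 412 to 544 CPM, the 8 cholangiocyte markers to 189 to 384 and 264 to 723 CPM, and the 12 lymphocyte markers to 19.5 to 85.0 and 44.2 to 74.9 CPM. FOXA2f/f replicate 2 had the lowest sum of all 6 libraries for each of these 5 lists and for the neutrophil list, and FOXA2f/f replicate 4 had the highest for 4 of the 5. In bulk RNA, fewer cells of a type and less RNA per cell cannot be told apart.

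The first question was whether loss of FOXA2 in hepatocytes changed the acute phase genes under CCl4. By edgeR's quasi-likelihood test, 0 of the 35 members were called at an adjusted p under 0.05 and at least 2-fold, while 0.00694% of all genes tested, the single gene Foxa2, were called. DESeq2 also called 0 members. At an unadjusted p under 0.05 there were 6 members by edgeR (17.1% of 35), against 5.17% of all genes. DESeq2 also gave 6 members, with no share of all genes to set beside them here. Of the 6 by edgeR, 4 had a higher level in FOXA2H-KO (A2m, Saa3, Il1r1 and Il1rn, background 1.98%) and 2 a lower level (Itih1 and Lbp, background 3.18%). The edgeR count of 6 depended on single libraries, and so did the share of all genes, given in brackets. The count was 2 without FOXA2f/f replicate 1 (4.1%) and 10 without FOXA2f/f replicate 2 (5.59%). It was 3 without either replicate 1 (4.06%) or replicate 2 (4.22%) of FOXA2H-KO, and 0 without FOXA2H-KO replicate 4 (2.78%). Without FOXA2f/f replicate 4, 4 higher and 2 lower members had an unadjusted p under 0.05, but so did 16.6% of all genes. In TMM-scaled CPM, the 3 libraries of one group lay entirely beyond the 3 of the other for 5 members (14.3%), against 10.5% of all genes. FOXA2H-KO was higher for A2m, Il1r1 and Il1rn (background 4.54%) and lower for Itih1 and Itih4 (background 5.96%). By direction of the fitted value, 10 members were higher and 25 lower in FOXA2H-KO, and the median log2 fold change was -0.23, beside -0.012 for all genes tested. Their adjusted p-values ran from 0.791 to 1.00. No member is therefore shown to have changed, and the values below are given with their spread.

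**Figure D1:**
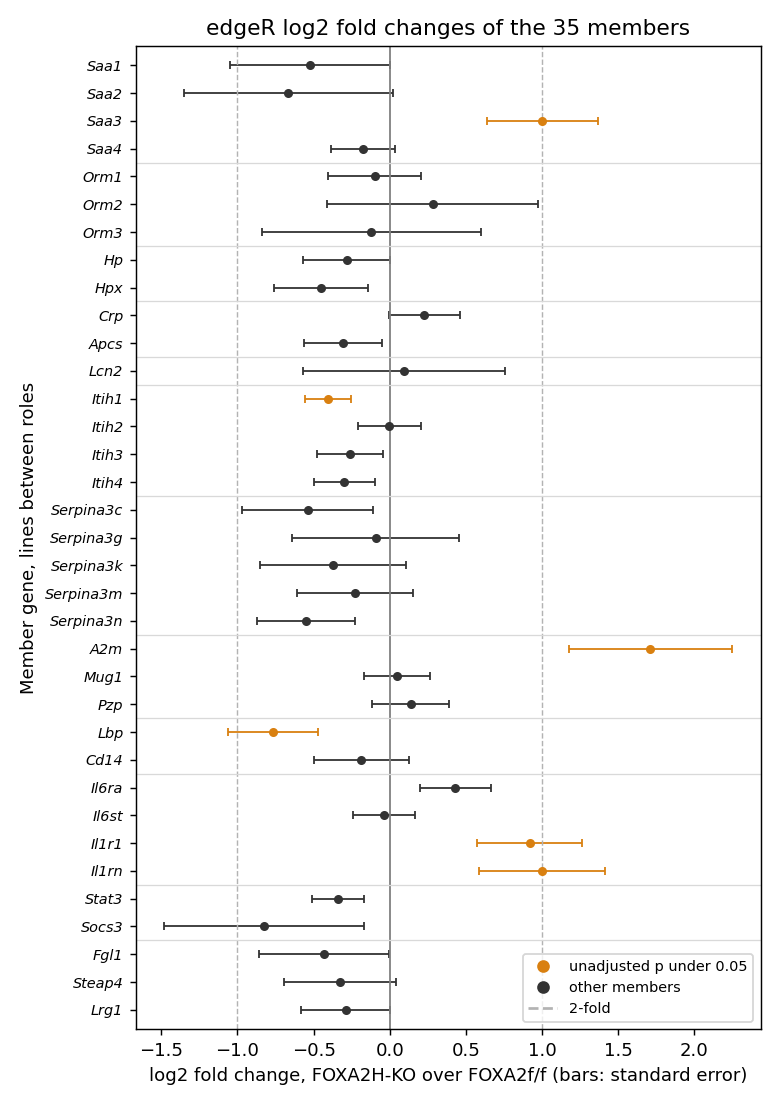
Log2 fold change of FOXA2H-KO over FOXA2f/f for the 35 members, grouped by role, with the standard error from the edgeR fit (n = 3 libraries per group). The points run from -0.82 for Socs3 to 1.71 for A2m, and orange marks the 6 members with an unadjusted p under 0.05.

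The secreted proteins made up a sizeable part of the hepatocyte transcriptome. The 35 members took 4.17%, 3.23% and 4.10% of the counts of FOXA2f/f replicates 1, 2 and 4, and 3.26%, 3.64% and 4.03% in the FOXA2H-KO replicates. The mean was 3.83% ± 0.521 in FOXA2f/f and 3.64% ± 0.387 in FOXA2H-KO (SD, n = 3 each), a difference smaller than the spread within either group (exact two-sided permutation p = 0.6, where the smallest p possible is 0.1). Per length, in the deposited FPKM, the haem scavenger hemopexin (Hpx) was the most abundant member, with a mean of 4836 FPKM in FOXA2f/f and 3777 FPKM in FOXA2H-KO. Haptoglobin (Hp), Serpina3k and Orm1 followed, at means of 2800, 2829 and 1670 FPKM in FOXA2f/f. At the other end stood A2m, at 0.0217 FPKM in FOXA2f/f, and Serpina3c, at 0.263 FPKM.

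**Figure D2:**
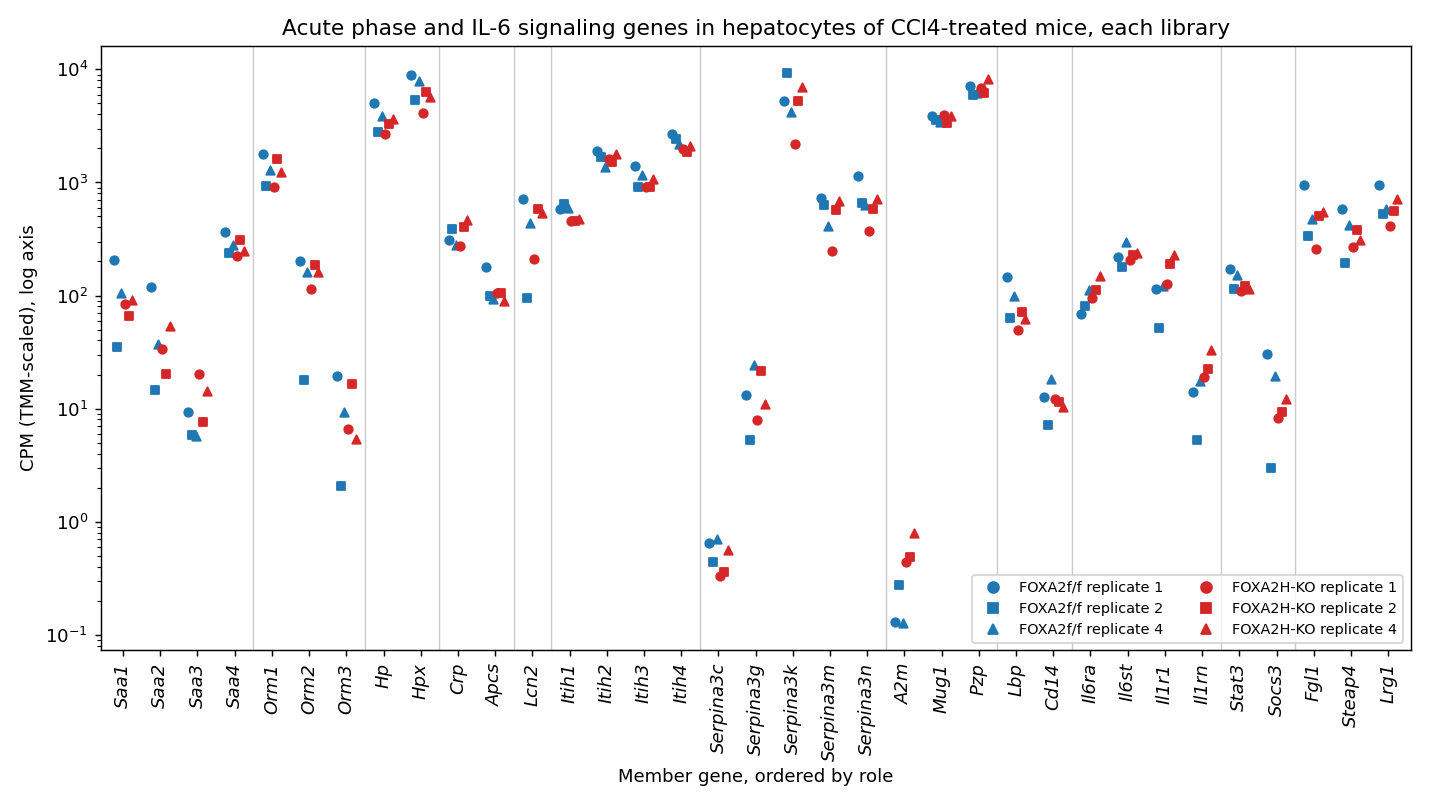
Level of each of the 35 members in each of the 6 libraries, in TMM-scaled CPM on a log axis, blue for FOXA2f/f and red for FOXA2H-KO, with the marker shape giving the replicate. Levels run from 0.127 CPM for A2m to 9223 CPM for Serpina3k, and the groups overlap for all members but A2m, Il1r1, Il1rn, Itih1 and Itih4.

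The serum amyloid A proteins are apolipoproteins of the acute phase, and Saa1 and Saa2 are the strongly inducible members in liver. Saa1 (chromosome 7, 46740497 to 46742980, minus strand) had the highest level per length of the 4 genes, at a mean of 184 FPKM in FOXA2f/f and 138 FPKM in FOXA2H-KO. It had 205, 34.8 and 105 CPM in FOXA2f/f replicates 1, 2 and 4 and 83.4, 65.4 and 91.6 CPM in FOXA2H-KO. The FOXA2H-KO libraries all lay inside the range of the FOXA2f/f libraries, whose own values spanned 5.90-fold between replicates 1 and 2. The log2 fold change was -0.52 ± 0.53 (SE, edgeR adjusted p = 0.983), and without FOXA2f/f replicate 1 it was 0.20. Saa2 (chromosome 7, 46751790 to 46754313, plus strand) had the same shape, with 118, 14.6 and 37.3 CPM in FOXA2f/f and 33.9, 20.3 and 53.3 CPM in FOXA2H-KO.

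Both genes share sequence, so that reads could have been counted for either or for neither. Of all 50-base words in the Saa1 transcripts 31.5% also occurred in another gene, and 30.0% of those in Saa2. Their coding sequences (366 bases each) were 95.1% identical, with 18 differences. The coding bases 70 to 189 are printed because most of the differences lie there, 12 of 18, and capitals mark the bases that differ (GENCODE M21, GRCm38).
Saa1: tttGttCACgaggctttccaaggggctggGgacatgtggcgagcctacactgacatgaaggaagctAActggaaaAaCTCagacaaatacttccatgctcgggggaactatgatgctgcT
Saa2: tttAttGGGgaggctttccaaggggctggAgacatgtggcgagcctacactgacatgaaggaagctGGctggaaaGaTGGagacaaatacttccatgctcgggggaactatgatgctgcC
Summed before the fit, Saa1 and Saa2 gave a log2 fold change of -0.57 ± 0.57 (SE, edgeR adjusted p = 0.983).

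Saa3 (chromosome 7, 46711998 to 46715700, minus strand), a form also made outside the liver and by macrophages, had 9.32, 5.87 and 5.75 CPM in FOXA2f/f and 20.1, 7.66 and 14.2 CPM in FOXA2H-KO. Only FOXA2H-KO replicate 2 lay within the FOXA2f/f range. Saa3 had a log2 fold change of 1.00 ± 0.36 (SE, edgeR adjusted p = 0.853). Macrophage marker sums were 1438, 688 and 3119 CPM in FOXA2f/f and 2418, 2175 and 1529 CPM in FOXA2H-KO. Their part in the Saa3 value was not tested. Saa4, the constitutive form, was at 239 to 364 CPM in FOXA2f/f and 223 to 312 CPM in FOXA2H-KO, with a log2 fold change of -0.18.

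The orosomucoids, or alpha-1-acid glycoproteins, are lipocalin carriers encoded by 3 neighbouring genes on chromosome 4. Orm1 had 1786, 935 and 1302 CPM in FOXA2f/f and 915, 1601 and 1241 CPM in FOXA2H-KO, and the groups overlapped throughout. Its log2 fold change was -0.10 ± 0.31 (SE, edgeR adjusted p = 0.993) and lay at 0.0015 when scaled by library size alone. Orm2 had 202, 18.0 and 160 CPM in FOXA2f/f and 115, 186 and 162 CPM in FOXA2H-KO, so that FOXA2f/f replicate 2 alone stood apart. Orm3 had 19.4, 2.08 and 9.34 CPM and 6.58, 16.5 and 5.36 CPM. The log2 fold changes of Orm2 and Orm3 were 0.28 and -0.12, with standard errors of 0.69 and 0.72. The coding sequences of Orm1 and Orm2 were 89.9% identical over 621 bases, and 20.4% of the 50-base words of Orm1 and 22.7% of those of Orm2 also occurred in another gene. The summed counts of the 3 genes gave -0.062 on the log2 scale.

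Hemopexin binds free haem and haptoglobin binds free haemoglobin. Hpx had 8909, 5329 and 7841 CPM in FOXA2f/f and 4130, 6339 and 5703 CPM in FOXA2H-KO. Of the FOXA2H-KO libraries, replicate 1 lay below all FOXA2f/f libraries and the other two lay between FOXA2f/f replicates 2 and 4. Their difference on the log2 scale was -0.45 ± 0.31 (SE, edgeR adjusted p = 0.983). Hp had 2770 to 5057 CPM in FOXA2f/f and 2688 to 3643 CPM in FOXA2H-KO, with a log2 fold change of -0.28.

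The pentraxins Apcs and Crp are opsonins, and Apcs, not Crp, is the main acute phase pentraxin of the mouse. Apcs had 179, 98.5 and 93.3 CPM in FOXA2f/f and 106, 105 and 89.1 CPM in FOXA2H-KO. FOXA2f/f replicate 1 alone stood above the rest, and the log2 fold change was -0.31 ± 0.26 (SE, edgeR adjusted p = 0.983). Crp was at 280 to 388 CPM in FOXA2f/f and 276 to 461 CPM in FOXA2H-KO (log2 fold change 0.23).

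Lipocalin 2 (Lcn2) binds bacterial siderophores and is made by hepatocytes in the acute phase and by neutrophils. It had 713, 94.4 and 434 CPM in FOXA2f/f and 211, 577 and 537 CPM in FOXA2H-KO. The log2 fold change was 0.10 ± 0.66 (SE, edgeR adjusted p = 0.997), since the 7.55-fold span between FOXA2f/f replicates 1 and 2 enclosed all FOXA2H-KO libraries. The neutrophil marker sum had the same order among the FOXA2f/f libraries, at 138, 12.6 and 87.5 CPM, and was 31.0, 35.3 and 23.0 CPM in FOXA2H-KO. Of the 11 neutrophil markers tested, 8 were lower in FOXA2H-KO and 7 of these had an unadjusted p under 0.05 (background 3.18%). These 7 were S100a8, S100a9, Mpo, Elane, Ngp, Camp and Ltf, and the groups did not overlap for Ngp alone. The 3 higher markers, Csf3r, Cxcr2 and Mmp8, had log2 fold changes of 0.29, 0.27 and 0.13. Unlike Lcn2, those 3 were highest among the FOXA2f/f libraries in replicate 4. The list thus had no single direction. The defining marker Ly6g was at 0 to 0.430 CPM, with 0 counts in replicate 2 of each group. The part of neutrophil RNA in the Lcn2 values was not tested.

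Of the inter-alpha-trypsin inhibitor heavy chains, Itih1, Itih2 and Itih3 bind hyaluronan and stabilise the extracellular matrix. Itih1 (chromosome 14, 30929180 to 30943289, minus strand) had 581, 651 and 598 CPM in FOXA2f/f and 455, 453 and 476 CPM in FOXA2H-KO. In TMM-scaled CPM the groups did not overlap and both were narrow, at 610 ± 36.3 and 462 ± 13.0 CPM (SD, n = 3 each). The log2 fold change of -0.40 ± 0.15 (SE) had an adjusted p of 0.894 by edgeR. The gap depended on the scaling. In the deposited FPKM the Itih1 groups lay at 157 ± 18.8 and 129 ± 6.95 FPKM (SD, n = 3 each). There FOXA2f/f replicate 1, at 142 FPKM, was close to FOXA2H-KO replicate 1, at 137 FPKM. Scaled by library size alone, Itih1 no longer had an unadjusted edgeR p under 0.05. Itih4, a neighbour of Itih1 (chromosome 14, 30886476 to 30902353, plus strand) and is induced by IL-6 in liver, had 2681, 2442 and 2206 CPM in FOXA2f/f and 1981, 1854 and 2122 CPM in FOXA2H-KO. These did not overlap either, although FOXA2f/f replicate 4 and FOXA2H-KO replicate 4 were close, and the log2 fold change was -0.30 ± 0.20 (SE, edgeR adjusted p = 0.983). In the deposited FPKM the Itih4 groups did overlap, with FOXA2H-KO replicate 1 at 473 FPKM and FOXA2f/f replicate 2 at 451 FPKM. Itih3 was at -0.26 on the log2 scale and Itih2 at -0.0015, where its sign turned under other scalings and filters.

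The serpin A3 genes of the mouse are an expanded family that corresponds to the human antichymotrypsin gene. Serpina3k was the most abundant, with 5295, 9223 and 4167 CPM in FOXA2f/f and 2195, 5228 and 7024 CPM in FOXA2H-KO. This gene ran against the general order among the FOXA2f/f libraries, with replicate 2 the highest. The log2 fold change was -0.37 ± 0.48 (SE, edgeR adjusted p = 0.983). The other 4 genes, Serpina3c, Serpina3g, Serpina3m and Serpina3n, had log2 fold changes of -0.55 to -0.09 with overlapping groups. Serpina3n, the family member best known as induced in inflammation, was at 628 to 1146 CPM in FOXA2f/f and 373 to 710 CPM in FOXA2H-KO. Shared 50-base words made up 14.0% of Serpina3k and 19.1% of Serpina3m, whose annotated exons also overlap, so that their split is uncertain. The summed counts of the family gave a log2 fold change of -0.38.

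The alpha-macroglobulins trap proteases, and in the mouse Pzp and the murinoglobulins are the forms made in quantity by liver. Pzp had 7130, 5932 and 6215 CPM in FOXA2f/f and 6835, 6145 and 8214 CPM in FOXA2H-KO, with a log2 fold change of 0.14 ± 0.25 (SE, edgeR adjusted p = 0.991). Mug1 was as even, at 3432 to 3845 CPM and 3375 to 3990 CPM, although 26.5% of its 50-base words occur in another gene. A2m (chromosome 6, 121635376 to 121679227, plus strand) had only 3, 5 and 4 counts in FOXA2f/f and 12, 12 and 17 counts in FOXA2H-KO, which is 0.129, 0.274 and 0.127 CPM against 0.441, 0.481 and 0.786 CPM. The groups did not overlap and the log2 fold change was 1.71 ± 0.54 (SE, edgeR adjusted p = 0.791). This difference of a few counts was the largest fold change of the 35 members, and the 3 macroglobulins summed gave 0.10.

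The proteins that sense bacterial endotoxin are the plasma carrier Lbp and its partner Cd14. Lbp (chromosome 2, 158306493 to 158332852, plus strand) had 147, 63.2 and 99.3 CPM in FOXA2f/f and 49.1, 71.0 and 62.2 CPM in FOXA2H-KO. FOXA2f/f replicate 2 lay among the FOXA2H-KO libraries, and the other two lay above them. For Lbp the log2 fold change was -0.76 ± 0.30 (SE, edgeR adjusted p = 0.918), and it was -1.02 without FOXA2f/f replicate 2 and -0.41 without FOXA2f/f replicate 1. Cd14 was at 7.18 to 18.3 CPM in FOXA2f/f and 10.3 to 12.1 CPM in FOXA2H-KO (log2 fold change -0.19).

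The receptors gave the other values that stood apart. Il1r1, the signaling receptor of interleukin-1 (chromosome 1, 40225080 to 40317257, plus strand), had the highest mean per length over the 6 libraries of the 4 members in this group, 14.3 FPKM beside 13.2 FPKM for Il6st. In FOXA2f/f alone Il6st was above it, at 13.0 against 9.59 FPKM, and in FOXA2H-KO below it, at 13.4 against 19.0 FPKM. It had 113, 51.8 and 121 CPM in FOXA2f/f and 126, 189 and 226 CPM in FOXA2H-KO. The groups did not overlap, although FOXA2H-KO replicate 1 exceeded FOXA2f/f replicate 4 by little. This was a log2 fold change of 0.92 ± 0.34 (SE, edgeR adjusted p = 0.895). Il1rn, the antagonist of the same receptor (chromosome 2, 24336853 to 24351494, plus strand), had 14.1, 5.26 and 17.7 CPM in FOXA2f/f and 19.2, 22.5 and 33.0 CPM in FOXA2H-KO. Again no library overlapped, with a log2 fold change of 1.00 ± 0.41 (SE, edgeR adjusted p = 0.941). Receptor and antagonist ran together over the 6 libraries (Pearson r = 0.98). Macrophages also make Il1rn, and the macrophage marker sums were given above with Saa3. The part of macrophage RNA in the Il1r1 and Il1rn values was not tested.

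The IL-6 receptor chains had different fitted values, but neither is shown to have changed and the gap between them was not tested. Il6ra, the ligand-binding chain, had 69.2, 81.4 and 113 CPM in FOXA2f/f and 94.4, 113 and 148 CPM in FOXA2H-KO, with a log2 fold change of 0.43 ± 0.23 (SE, edgeR adjusted p = 0.952). Il6st, the subunit shared by the cytokine family, was at 178 to 296 CPM and 205 to 239 CPM. It was at -0.036 on the log2 scale and turned to 0.044 when scaled by library size alone. IL-6 itself was at the edge of detection, with 3, 0 and 1 counts in FOXA2f/f and 0, 2 and 1 counts in FOXA2H-KO.

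Downstream, Stat3 had 170, 114 and 152 CPM in FOXA2f/f and 109, 120 and 115 CPM in FOXA2H-KO. The FOXA2H-KO libraries were close together and FOXA2f/f replicate 2 lay among them. On the log2 scale Stat3 differed by -0.34 ± 0.17 (SE, edgeR adjusted p = 0.944). Socs3, the feedback inhibitor that Stat3 induces, had 30.2, 2.96 and 19.5 CPM in FOXA2f/f and 8.28, 9.34 and 12.3 CPM in FOXA2H-KO. All 3 FOXA2H-KO libraries lay within the 10.2-fold span of the FOXA2f/f libraries, and the log2 fold change was -0.82 ± 0.65 (SE, edgeR adjusted p = 0.983). The transcript level of Stat3 does not measure its phosphorylation. Of the remaining targets, Lrg1, a secreted glycoprotein and the most abundant of them per length, had 952, 530 and 577 CPM in FOXA2f/f and 414, 561 and 711 CPM in FOXA2H-KO (log2 fold change -0.29 ± 0.29 SE, edgeR adjusted p = 0.983). The secreted Fgl1 and the metalloreductase Steap4 were at -0.43 and -0.33 on the log2 scale, each with overlapping groups.

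**Figure D3:**
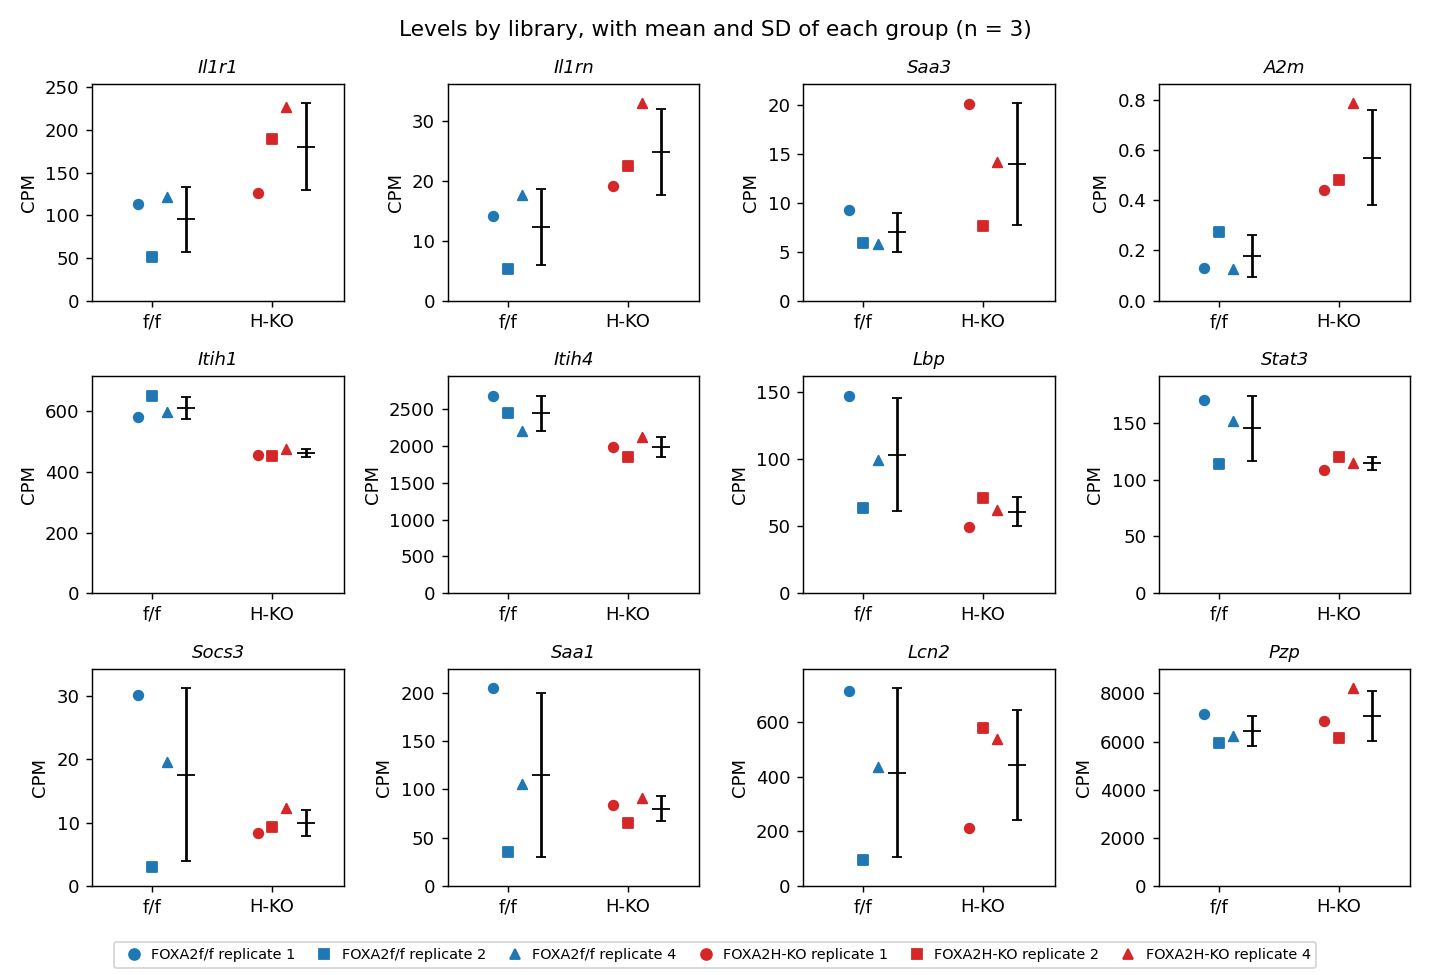
Levels in CPM of 12 members, with 1 point per library and the mean and SD of each group (n = 3) beside the points. Il1r1, Il1rn and A2m are higher and Itih1 and Itih4 lower in every FOXA2H-KO library, while Saa1, Socs3 and Lcn2 span 5.90-fold to 10.2-fold between FOXA2f/f replicates 1 and 2.

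The members tended to share an order of the libraries within each group. FOXA2f/f replicate 1 had the highest level of the 3 FOXA2f/f libraries for 24 of 35 members (68.6%), against 25.7% of all genes tested. FOXA2f/f replicate 2 had the lowest for 23 members (65.7%), against 37.9% of all genes. Both held together for 17 members (48.6%, against 12.1% of all genes), among them Saa1, Saa2, Orm1, Orm2, Orm3, Lcn2 and Socs3. In the list of 27 other positive acute phase proteins, FOXA2f/f replicate 1 was the highest for 63.0%, replicate 2 the lowest for 44.4% and both held for 33.3%. Of these shares, the 44.4% was near the 37.9% of all genes. Members are not independent of each other, so these shares describe the libraries and carry no test. The fold between replicates 1 and 2 was 11.2 for Orm2, 10.2 for Socs3, 9.32 for Orm3, 8.08 for Saa2, 7.55 for Lcn2 and 5.90 for Saa1. In the FOXA2H-KO group, replicate 1 had the lowest level for 24 members (68.6%, against 36.4% of all genes) and replicate 4 the highest for 21 of 35 (against 32.5% of all genes). The median range within a group on the log2 scale was 0.87 in FOXA2f/f and 0.63 in FOXA2H-KO, beside 0.56 and 0.35 for all genes. The wider range lay in FOXA2f/f for 27 members (77.1%), near the 71.8% of all genes.

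**Figure D4:**
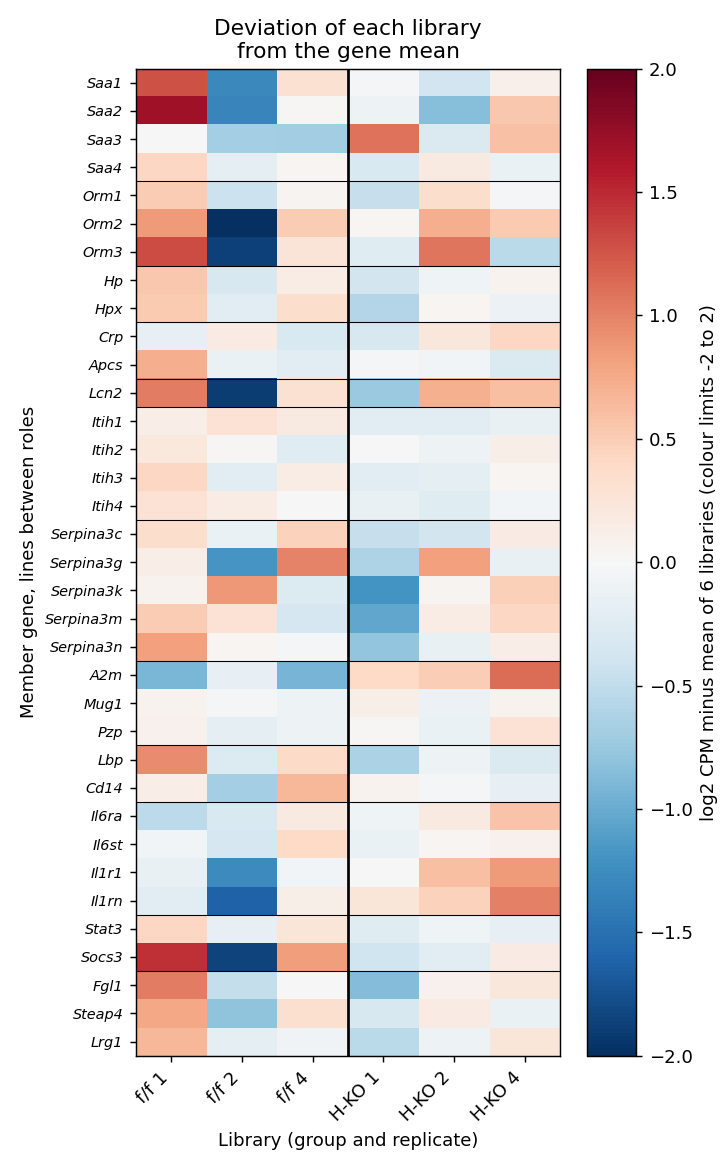
Deviation of each library from the mean of the 6 libraries on the log2 CPM scale for the 35 members, red above and blue below that mean, with the black line between FOXA2f/f and FOXA2H-KO. FOXA2f/f replicate 1 is the highest of all 6 libraries for 21 members (60%, against 15% of all genes tested). FOXA2f/f replicate 2 is the lowest for 13 (37.1%, near the 29.2% of all genes).

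This spread bore on the comparison of the groups. Without FOXA2f/f replicate 2, the libraries left did not overlap for 12 members that were lower in FOXA2H-KO (background 10.2%), namely Saa1, Hp, Hpx, Itih1, Itih3, Itih4, Serpina3c, Lbp, Cd14, Stat3, Socs3 and Steap4. An unadjusted p under 0.05 was then found for 7 lower members (background 3.22%), with Socs3 at -1.32 on the log2 scale and the lowest adjusted p of any member under any alternative, 0.208 by edgeR. Without FOXA2f/f replicate 1 instead, 0 lower members had an unadjusted p under 0.05, Socs3 was at -0.19 on the log2 scale and the median of the 35 turned from -0.23 to 0.054. Of the 35 members, 18 changed sign without 1 of the 6 libraries. Neither FOXA2f/f library had a label that would set it aside.

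Likeness between members was described by Pearson's r of log2 CPM over the 6 libraries, which share their depth and cell makeup across all pairs. The median of the 595 pairs was 0.39, with 77 pairs over 0.8 and 25 under -0.5. Both groups enter each r, and no value for pairs of other genes is set beside these. They therefore do not show that members were more alike than other genes. The pairs most alike were Lbp with Stat3 (r = 0.98), Il1r1 with Il1rn (0.98), Fgl1 with Lrg1 (0.97) and Saa1 with Socs3 (0.96).

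Promoter sequences of the members were searched for motifs of STAT, C/EBP, NF-kB and FOXA factors. RefSeq windows from 250 bases before to 50 bases after the gene start (GRCm38.p6) matched 27 of the 35 members, in 30 windows. Orm1, Hp, Serpina3k, Serpina3m, A2m, Lbp, Cd14 and Fgl1 were not matched. The C/EBP motif TTGCNNAA, read on both strands, was in 11 of the 30 windows (36.7%) and in 10.8% of all 32851 windows. The STAT motif TTCNNNGAA was in 5 of 30 (16.7%, against 8.30%) and the NF-kB motif GGGNNTTTC in 5 of 30 (16.7%, against 4.36%). Of the 5 NF-kB windows, both windows of Il1rn overlap and hold the same site, and counted by gene the motif was in 4 of 27 members (14.8%, against 5.06% of all genes with a window). The FOXA motifs TGTTTAC and TATTTAC were in 1 of 30 windows, that of Saa4 (3.33%, against 6.54%). Each motif was searched on both strands, matches of different motifs may overlap, and a match is a description of the sequence and not a bound site. The stretches of 60 bases are shown for the inducible genes whose libraries spread most and for the receptor Il1r1, all on the strand of the gene, with a C/EBP match in capitals.
Saa1, chr7:46743129-46743188, minus strand: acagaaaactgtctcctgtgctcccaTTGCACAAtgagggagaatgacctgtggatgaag
Saa2, chr7:46751624-46751683, plus strand: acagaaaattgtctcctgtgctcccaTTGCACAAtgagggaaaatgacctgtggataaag
Orm2, chr4:63362303-63362362, plus strand: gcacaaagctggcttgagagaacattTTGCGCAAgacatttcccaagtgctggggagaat
Orm3, chr4:63356011-63356070, plus strand: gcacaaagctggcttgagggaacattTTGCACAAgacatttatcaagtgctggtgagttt
Lcn2, chr2:32387922-32387981, minus strand: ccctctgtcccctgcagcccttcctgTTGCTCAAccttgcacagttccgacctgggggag
Il1r1, chr1:40224921-40224980, plus strand: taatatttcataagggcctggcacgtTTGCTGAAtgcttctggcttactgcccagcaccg
The match in Saa1 and Saa2 begins 182 and 183 bases before the start and lies in nearly the same context, as does that of Orm2 and Orm3 at 120 and 121 bases before it. A STAT match is shown in capitals for Socs3, the feedback gene, and for Itih4, whose groups did not overlap in TMM-scaled CPM.
Socs3, chr11:117969486-117969545, minus strand: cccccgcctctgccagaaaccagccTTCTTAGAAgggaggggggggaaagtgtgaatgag
Itih4, chr14:30886400-30886459, plus strand: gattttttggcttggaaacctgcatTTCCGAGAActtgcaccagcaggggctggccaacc

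Other genes of the pathway were read from lists of 111 genes, of which 105 were tested. edgeR called 0 of them, and 9 (8.57%, against 5.17% of all genes) had an unadjusted p under 0.05, of which 2 were higher and 7 lower in FOXA2H-KO. Their median on the log2 scale was -0.032. The 2 higher genes were Lifr, the receptor of leukaemia inhibitory factor that pairs with Il6st, and Stat5a, a transducer of growth hormone and cytokine signals. Lifr was at 145 ± 15.3 CPM in FOXA2f/f and 194 ± 3.74 CPM in FOXA2H-KO (SD, n = 3 each; log2 fold change 0.43, edgeR adjusted p = 0.797), and Stat5a had a log2 fold change of 0.48. Osmr, the oncostatin M receptor, was at 4.55 to 21.6 CPM in FOXA2f/f and 10.5 to 12.8 CPM in FOXA2H-KO. The transcription factor Cebpb was at 41.2 to 71.4 CPM and 42.9 to 84.4 CPM, and its list of 10 C/EBP and hepatocyte factors had 0 genes with an unadjusted p under 0.05. In the list for interleukin-1 and NF-kB, 1 of 28 had one, the TNF receptor Tnfrsf1a (-0.32).

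Of the 27 genes tested in the list of other positive acute phase proteins, 21 had a lower and 6 a higher value in FOXA2H-KO. In that list 5 (18.5%) had an unadjusted p under 0.05, all lower. Whether each listed gene, these 5 included, rises in the acute phase of the mouse was not tested here. Over all genes tested, 7525 of 14417 had a lower value, and 3.18% had a lower value with an unadjusted p under 0.05. Mbl2 and Masp1, the recognition lectin and a protease of the lectin pathway of complement, had log2 fold changes of -0.79 and -0.51. Mbl2 had 367, 238 and 273 CPM in FOXA2f/f and 185, 170 and 153 CPM in FOXA2H-KO, without overlap (edgeR adjusted p = 0.650). C4b, a complement component that shares 34.6% of its 50-base words with C4a, was at -0.52, the carboxypeptidase subunit Cpn1 at -0.63 and the galectin Lgals9 at -0.46. The fibrinogen chain Fgb was at 3185 to 7342 CPM in FOXA2f/f and 3033 to 4277 CPM in FOXA2H-KO (log2 fold change -0.42, edgeR adjusted p = 0.983). Among 16 negative acute phase proteins, whose plasma level normally drops in inflammation, 15 had a lower value and 1 had an unadjusted p under 0.05, Igfals, the carrier subunit of insulin-like growth factors (log2 fold change -0.75, edgeR adjusted p = 0.607). The lists of other positive and of negative acute phase proteins thus had medians of the same sign, -0.27 and -0.12.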

How the data were processed

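Primary hepatocyte RNA of 6 mouse samples was sequenced as poly-A TruSeq paired-end libraries. The authors deposited, for each library, raw fragment counts per Ensembl gene and FPKM values. The submitters' processing notes name CASAVA 1.8, TopHat2 2.1.0, HTSeq, edgeR and the build mm10; the annotation is not given in the sources used here. Counts were tested in R 4.3.3 with edgeR 4.0.16 (TMM, filterByExpr, quasi-likelihood test without a block, Benjamini-Hochberg over 14417 genes). A call needed an adjusted p under 0.05 and a fold change of at least 2. The standard error is the log2 fold change divided by the square root of F. FPKM served to compare levels between genes and, for Itih1 and Itih4, to read the overlap of the groups beside CPM. The fit was tested on simulated data. Alternatives were DESeq2 1.42.0, other scalings and filters, a replicate block, summed paralogs and leaving out each library. Positions came from GENCODE M21 (GRCm38). The members, gene lists and motifs were chosen with earlier results of these data known. All members are named. Values in every library are given for members with an unadjusted p under 0.05, without overlap, or the most abundant of their role by FPKM, and for a few chosen after their values were seen (Saa2, Orm2, Orm3, Il6ra, Socs3). Of the other lists, genes with an unadjusted p under 0.05 are named, with Il6, Osmr, Cebpb and Fgb.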

Additional observations from a re-analysis of the deposited data

How the results depend on the processing

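No member was called under any of the 13 alternatives. DESeq2 called 73 genes in all, scaling by library size alone 0, and no filter on low counts 2, against 1 in the fit reported. Library size alone left 3 members with an unadjusted p under 0.05 (Saa3, A2m and Il1r1), with no share of all genes to set beside them here. This scaling shifted the centre of all genes, as their median, from -0.012 to 0.10 on the log2 scale and that of the members from -0.23 to -0.11. It gave log2 fold changes of 0.0015 for Orm1, 0.044 for Il6st and 0.13 for Itih2. Itih2 was at 0.012 with upper quartile scaling, 0.0016 without a filter and 0.0056 with at least 10 counts in every library.

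With each library left out in turn, 0 to 6 genes were called, and 0 to 10 members had an unadjusted p under 0.05 (10 without FOXA2f/f replicate 2, 0 without FOXA2H-KO replicate 4). The share of all genes with an unadjusted p under 0.05 ran from 2.78% to 16.6%, the highest without FOXA2f/f replicate 4. Groups did not overlap for 6 to 15 members, which 2 libraries in an arm make more common (15.7% to 36.4% of all genes). The members' median ran from -0.37 to 0.054, the count of pathway genes with an unadjusted p under 0.05 from 6 to 16, and the difference in summed share from -0.492 to 0.0013 percentage points, where the sign turned without FOXA2H-KO replicate 1. Without the 10 most abundant genes the difference was -0.325. The sign turned for 18 members, whose lowest and highest log2 fold changes were those of Saa1 (-0.95 to 0.20), Saa2 (-1.12 to 0.47), Saa4 (-0.32 to 0.017), Orm1 (-0.32 to 0.18), Orm2 (-0.23 to 0.80), Orm3 (-0.79 to 0.72), Apcs (-0.47 to 0.074), Lcn2 (-0.37 to 0.75), Itih2 (-0.11 to 0.12), Serpina3g (-0.61 to 0.53), Serpina3k (-0.73 to 0.028), Serpina3m (-0.51 to 0.097), Mug1 (-0.0020 to 0.12), Cd14 (-0.47 to 0.17), Il6st (-0.19 to 0.18), Fgl1 (-0.71 to 0.12), Steap4 (-0.65 to 0.054) and Lrg1 (-0.49 to 0.036). The ranges of members that kept their sign included Saa3 (0.64 to 1.29), A2m (1.43 to 2.1), Il1r1 (0.63 to 1.13), Il1rn (0.65 to 1.35), Itih1 (-0.42 to -0.35), Lbp (-1.02 to -0.41) and Socs3 (-1.32 to -0.19).

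No pairing of the libraries by replicate number was seen. The correlation of deviations between libraries of the same number was -0.069, 0.026 and -0.23, and 0 of 6 libraries correlated best with the library of their own number. Deviations from a group mean are tied to each other, so these correlations cannot exclude a pairing. A fit with the replicate block called 0 genes and left 5 members with an unadjusted p under 0.05, with no share of all genes beside them here (Itih2 at 0.0073). The causes were not tested. With 3 libraries per group, counts of a few fragments (A2m) and spans of up to 11.2-fold within a group limit what could be called.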
